A study of Homo sapiens with 2 samples.

Results

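Among protein-coding genes that were well read in HSC-1 cells, 270 had an RPKM in the siLINP1 library below 0.6 of that in the siNC library. RPKM is the number of reads divided by the gene length and by the total of counted reads of the library. The genes were taken from the deposited table of 44591 genes by 3 conditions, which were a protein-coding type, at least 100 reads summed over both libraries and an RPKM ratio below 0.6. Names starting with HIST, RPL, RPS, COL, KRT, ZNF, TRIM or HOX were left out. The first 2 conditions and the name filter left 11204 genes, so the 270 genes were 2.41% of the well-read coding genes. The genes were thus chosen by the ratio itself, and its values are given as a description, with no test. At the cutoff, TXNDC17 and ARL15 lay just inside with ratios of 0.5997 and 0.5998, and SYT17 and B3GLCT just outside with 0.6005 and 0.6007.

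HSC-1 is a cell line from a cutaneous squamous cell carcinoma, and the study asked which genes respond when the long noncoding RNA LINP1 is knocked down in it. One culture was transfected with a control siRNA (siNC) and the other with siRNA against LINP1 (siLINP1). Per the labels, transfection took place at about 70% confluency in medium without serum for 6 h, and RNA was collected 24 h after a change to DMEM with 10% serum, while the methods of the study give another confluency and another time. Each condition had 1 library, so no difference has a replicate check, and every interval below is a 95% Clopper-Pearson interval that covers counting error only. LINP1 had 167 reads in siNC and 23 in siLINP1, which are 10.7 and 1.80 RPKM and a ratio of 0.169 (95% interval 0.104 to 0.262). The libraries held 18829544 reads (siNC) and 15383081 reads (siLINP1). Most markers of squamous epithelium had few reads. In siNC and siLINP1 there were 32 and 24 reads of KRT5, 31 and 45 of KRT6A and 59 and 54 of KRT17. TP63 had 6 and 8 reads, DSG3 5 and 5, CDH1 14 and 3 and EPCAM 12 and 8. More reads were found for KRT14 (243 and 87), DSP (699 and 512) and ITGB4 (5990 and 3962). Of the mesenchymal genes, VIM had 61097 and 41992 reads, CDH2 1862 and 1092 and FN1 1151 and 753. COL1A1 had 190 and 79 reads and THY1 1 and 0.

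An siRNA works through its guide strand, which leads an Argonaute protein to a fully matched RNA and has it cut. The bases near the 5′ end of the guide, called the seed, can also pair with the 3′UTR of other mRNAs in the way a microRNA does, and mRNAs with such a match can be lowered without a full match. The steady level of an mRNA further depends on its transcription and decay, which total RNA sequencing does not separate. In RNA from a whole culture, fewer cells that express a gene and less of its RNA per cell cannot be told apart.

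The 270 genes were a shallowly read set. Their median was 339 reads over both libraries, with a range from 101 to 133740, against a median of 1313 reads for the 11204 well-read coding genes. Of the 1398 coding genes with at least 100 but under 300 reads, 9.16% had a ratio below 0.6, and 2.83% of those with 300 or more but under 1000 reads. The share was 0.985% from 1000 to under 3000 reads and 0.481% from 3000 reads on. The minimum was set on the sum, so 139 of the 270 genes had under 100 reads in siLINP1. In the opposite direction, 636 genes (5.68%) had a ratio above 1/0.6. Their median was 728 reads, also below that of the background, and their share fell with depth too, though less steeply. It was 11.9% at 100 to under 300 reads, 6.68% at 300 to under 1000, 4.42% at 1000 to under 3000 and lowest from 3000 reads on. Low depth was thus not particular to the genes below 0.6. The 636 genes were 70.2% of the genes past either limit, a share that came to 56.5% with median-of-ratios size factors and 59.9% with TMM factors. Within the 270 genes the median ratio was 0.536, compared with 1.03 over all 11204. The ratio was below 0.5 in 90 of them, below 0.4 in 25 and below 0.3 in 8. The whole counting interval lay below 0.6 for 63 genes, 0.562% of the 11204. It lay below 1 for all 270, which the rule fixes, since at 100 reads a ratio under 0.6 leaves no interval that reaches 1. Of all 11204 genes, 3041 had an interval below 1.

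**Figure D1:**
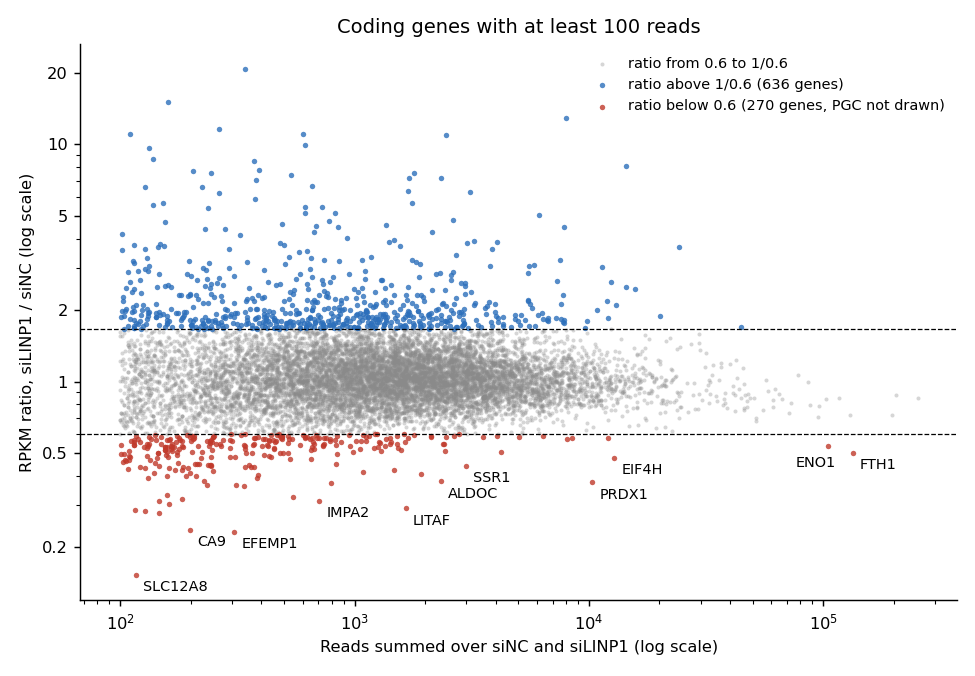
The RPKM ratio of siLINP1 to siNC (y axis, log scale) is plotted against the reads summed over both libraries (x axis, log scale) for coding genes with at least 100 reads, 1 point per gene. Dashed lines mark 0.6 and 1/0.6. The genes below 0.6 (red, PGC with 0 reads in siLINP1 not drawn) thin out towards deep coverage, while FTH1 and ENO1 stand alone at the far right. The share of genes above 1/0.6 also falls with depth, though less steeply.

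Most of the RNA in the set came from FTH1 and ENO1. The 270 genes took 1.68% of all reads in siNC and 0.874% in siLINP1, and these 2 genes gave 53.0% and 52.5% of that. FTH1, the heavy chain of the iron store ferritin, had 95000 reads (4105 RPKM) in siNC and 38740 reads (2049 RPKM) in siLINP1. The ratio was 0.499 (95% interval 0.493 to 0.505), and FTH1 went from rank 2 to rank 6 of the well-read coding genes by RPKM. ENO1, the glycolytic enzyme enolase, had 72905 reads (1190 RPKM) and 31943 reads (638 RPKM), a ratio of 0.536 (95% interval 0.529 to 0.543). Pseudogenes can share reads with both genes, and the 21 pseudogenes named after FTH1 held 236 reads in siNC and 106 in siLINP1, which is 0.256% of the reads of FTH1. FTL, the light chain of ferritin and not in the set, had 33083 and 18486 reads (ratio 0.684).

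The other 8 of the 10 most-read genes act in translation, actin dynamics, redox defence, mitochondria and mRNA decay. EIF4H, which helps the helicase of the cap-binding complex to unwind mRNA, had 9224 reads (192 RPKM) in siNC and 3589 reads (91.6 RPKM) in siLINP1, a ratio of 0.476 (95% interval 0.458 to 0.495). PRDX1, a peroxiredoxin that removes hydrogen peroxide, had the lowest ratio of the 10. It held 7915 reads (312 RPKM) in siNC and 2431 (117 RPKM) in siLINP1, with a ratio of 0.376 (95% interval 0.359 to 0.393). GSN, the filament-severing protein gelsolin, had 8205 and 3891 reads and a ratio of 0.580. VDAC1, a channel of the outer mitochondrial membrane, had 5740 and 2714 reads with a ratio of 0.579. WASF2, which activates the Arp2/3 complex, and ARPC5, a subunit of that complex, had ratios of 0.573 (5475 and 2565 reads) and 0.591 (4303 and 2076 reads). HNRNPD, which binds AU-rich elements in mRNA, had 3413 and 1619 reads and a ratio of 0.581. CNN2, the actin-binding protein calponin 2, had 2970 and 1228 reads with a ratio of 0.506 (95% interval 0.473 to 0.541). The upper bound stayed below 0.6 for FTH1, ENO1, EIF4H, PRDX1 and CNN2, and lay between 0.601 and 0.622 for the other 5.

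**Figure D2:**
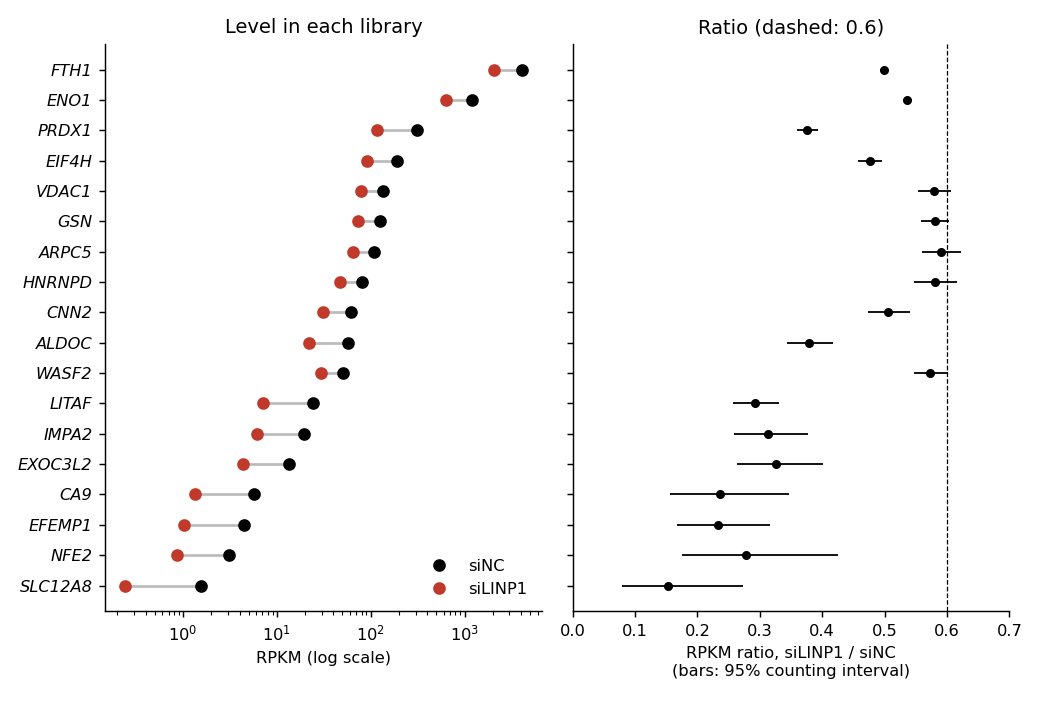
The left panel gives the RPKM (x axis, log scale) of 18 genes in siNC (black) and siLINP1 (red), and the right panel their RPKM ratio with the 95% counting interval. The genes are the 10 most read and the 10 with the lowest upper bound of the ratio, with PRDX1 in both and PGC, at 0 reads in siLINP1, not drawn. Intervals widen from FTH1, where they are narrower than the point, to SLC12A8 at 0.153.

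Ranked by the upper bound of the interval, the first 10 genes differed widely in level, from 1.57 RPKM (SLC12A8) to 312 RPKM (PRDX1) in siNC. PGC encodes pepsinogen C of the stomach, and its 194 reads of siNC faced 0 reads of siLINP1. With its 0 reads replaced by a floor of 3 reads, PGC was 52.8-fold lower. The counting interval allows a smaller fall, since the upper bound of its ratio, which the ranking used, was 0.0235. The transporter gene SLC12A8 had 104 and 13 reads (1.57 and 0.240 RPKM), a ratio of 0.153 (95% interval 0.0788 to 0.273). EFEMP1, the matrix protein fibulin-3, followed with 258 and 49 reads and a ratio of 0.232 (95% interval 0.168 to 0.317). LITAF, a membrane protein of late endosomes, was the best read of the genes under 0.3, with 1334 reads (24.2 RPKM) in siNC and 318 (7.06 RPKM) in siLINP1 and a ratio of 0.292 (95% interval 0.257 to 0.330). CA9, the carbonic anhydrase known as a marker of hypoxia, had 166 and 32 reads with a ratio of 0.236 (95% interval 0.156 to 0.346). IMPA2, an inositol monophosphatase, had 562 and 144 reads and a ratio of 0.314 (95% interval 0.259 to 0.377). The rest of these 10 were PRDX1, EXOC3L2 (432 and 115 reads, ratio 0.326), the brain-type aldolase ALDOC (1784 and 552 reads, ratio 0.379) and NFE2, a transcription factor of blood cells (119 and 27 reads, ratio 0.278).

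The sequences of both siRNAs were compared with the 3′UTRs of these genes, since seed matches are a property that the rule did not use. The study lists 2 oligonucleotides against LINP1, and the sources used here do not name which of them was sequenced. The target bases are shown first, as DNA of the plus strand, and then the guide strand that pairs with them, with its seed (bases 2 to 8) in capitals.
siLINP1_01 target, chr10:6780757-6780775: ccaactgcgggacttcaga
siLINP1_01 guide: uCUGAAGUcccgcaguugg
siLINP1_02 target, chr10:6780487-6780505: cactctccagcctgcaaga
siLINP1_02 guide: uCUUGCAGgcuggagagug
Both targets lie in the last exon of LINP1 (GRCh37). A 7-base site is the complement of guide bases 2 to 8, ACTTCAG for siLINP1_01 and CTGCAAG for siLINP1_02, and an 8-base site has an A after it, ACTTCAGA and CTGCAAGA. A 7-base site of either siRNA was present in 83 of the 269 genes with an annotated 3′UTR (30.9%, 95% interval 25.4% to 36.8%), and in 30.9% of all well-read coding genes. The 8-base site of siLINP1_01 was in 27 of the 269 genes (10.0%, 95% interval 6.72% to 14.3%), against 6.53% of all well-read coding genes, and that of siLINP1_02 in 12 (4.46%) against 4.52%.

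Among the deeply read genes, the 8-base site of siLINP1_01 was more frequent in the set than in the background. At least 1000 reads were held by 53 of the 270 genes, 0.796% of the 6660 coding genes so read. Of these 53 genes, 12 had the 8-base site of siLINP1_01 (22.6%, 95% interval 12.3% to 36.2%), against 6.32% of the 6627 deeply read coding genes with a 3′UTR and 5.43% of the 258 that had a ratio above 1/0.6. The 8-base site of siLINP1_02 was in 2 of the 53 genes (3.77%) and in 22 of the 258 genes with a ratio above 1/0.6 (8.53%, 95% interval 5.42% to 12.6%), against 4.75% in the background. Below 1000 reads the share for siLINP1_01 was 7.09% in genes under 300 reads and 6.74% in those with 300 or more, beside 6.94% and 6.79% of all coding genes. The split by depth was planned for the 7-base sites of both siRNAs, which gave 21 of 53 genes (39.6%) against 30.9%, and the 8-base site of siLINP1_01 alone was singled out after the data had been seen. Genes are not replicates of the experiment, so the intervals describe these 3′UTRs and carry no test.

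**Figure D3:**
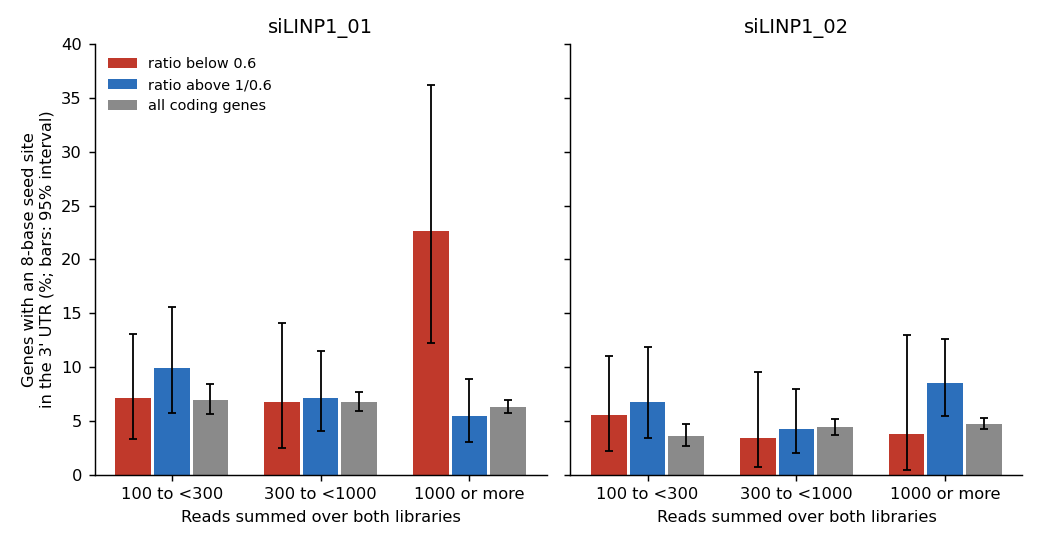
Bars give the percentage of genes whose 3′UTR holds the 8-base seed site of siLINP1_01 (left) or siLINP1_02 (right), by reads summed over both libraries, for genes with a ratio below 0.6 (red), above 1/0.6 (blue) and for all well-read coding genes (grey). Error bars are 95% Clopper-Pearson intervals. At 1000 or more reads, the share for siLINP1_01 in genes below 0.6 was 22.6% against 6.32%. For siLINP1_02 in genes above 1/0.6 it was 8.53% against 4.75%. The 8-base site of siLINP1_01 was singled out after the data had been seen, and the intervals carry no test. The bars are not split by 3′UTR length.

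The site was next counted by 3′UTR length, in classes of few genes. The intervals of these classes also describe the 3′UTRs only and carry no test. Of the deeply read genes below 0.6, 2 of 16 had the site when the 3′UTR was under 500 bases (12.5%, 95% interval 1.55% to 38.3%, background 0.951%) and 3 of 14 from 500 to under 1500 bases (21.4%, 4.66% to 50.8%, background 2.69%). In the longer classes it was 4 of 14 from 1500 to under 3000 bases (28.6%, 8.39% to 58.1%, background 5.16%) and 3 of 9 from 3000 bases on (33.3%, 7.49% to 70.1%, background 15.5%), and in this last class the interval holds the background. At any depth, the share in 3′UTRs of 3000 bases or more was 15.4% in the set and 15.5% in the background. Viewed from the site, 12 of the 419 deeply read coding genes with it had a ratio below 0.6 (2.86%), compared with 41 of 6208 without it (0.660%). The median log2 ratio was 0.04 with the site and 0.05 without it. Most genes with the site were thus not in the set, and the part of seed pairing in these ratios was not tested. The deeply read genes above 1/0.6 had longer 3′UTRs than the background, with medians of 1993 and 1592 bases. By the same length classes, 3.85%, 1.37%, 9.46% and 15.3% of them had the 8-base site of siLINP1_02. The background held 0.864%, 1.94%, 4.25% and 11.2%, and in each class the interval holds the background.

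For the genes of the 2 rankings above that carry the 8-base site of siLINP1_01, and for C19orf70 from the lists below, which has the longest match among the deeply read genes, the 19 bases that align with the siRNA target are shown from the RNA strand, with the unbroken match to the target, counted from its 3′ end, in capitals.
EIF4H, chr7:73611167-73611185, plus strand: accaacacttaACTTCAGA
PRDX1, chr1:45976903-45976921, minus strand: taaaacacaaGACTTCAGA
ARPC5, chr1:183595356-183595374, minus strand: aaaatgataaaACTTCAGA
HNRNPD, chr4:83274129-83274147, minus strand: tgcagtcagttACTTCAGA
CNN2, chr19:1038441-1038459, plus strand: cagaccaacaGACTTCAGA
C19orf70, chr19:5678437-5678455, minus strand: cccaataaaGGACTTCAGA
LITAF, first site, chr16:11642072-11642090, minus strand: gttttgataatACTTCAGA
LITAF, second site, chr16:11641734-11641752, minus strand: cccgattaaaaACTTCAGA
IMPA2, chr18:12030835-12030853, plus strand: ccccccggagtACTTCAGA
All 9 windows lie in annotated 3′UTRs of GRCh37. That of C19orf70 lies in a 3′UTR of 132 bases, and the longest annotated 3′UTR of this gene, of 394 bases, does not hold it. The unbroken match was 8 bases in EIF4H, ARPC5, HNRNPD, IMPA2 and both sites of LITAF, 9 bases in PRDX1 and CNN2, and 10 bases in C19orf70, a subunit of the mitochondrial contact site complex with 1723 and 718 reads (ratio 0.510). Over the 19 positions, between 8 (first site of LITAF) and 14 (C19orf70) matched, so none came near a full match. The HNRNPD window lies beyond the gene span of the deposited table, which ends the gene closer to the coding part. The other 5 of the 12 deeply read genes were COPZ1, GDA, KMT5A, MEN1 and PCYOX1, with ratios from 0.533 (PCYOX1) to 0.590 (COPZ1), and they are named here after their values were seen. ARPC5 also carries the 8-base site of siLINP1_02, and WASF2 carries 2 sites of 7 bases for siLINP1_01 and none of 8.

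The set was then read against 15 gene lists, of which 44 of the 433 well-read genes were in the set. The lists were written with earlier results of these libraries known, so their share beside the 2.41% of all coding genes is not read as a result, and each list is described by its counts and median. A list's median ratio is given over its well-read genes, for which the median of all coding genes was 1.03.

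Glycolysis and hypoxia held 5 genes of the set among 42. These were CA9, PPFIA4 (609 and 185 reads, ratio 0.372), ALDOC, FAM162A (884 and 381 reads, ratio 0.528) and ENO1. The list's median ratio was 0.810, and 1 gene, BHLHE40, was above 1/0.6. Several other glycolytic genes lay a little above the cutoff, such as LDHA (14951 and 7590 reads, ratio 0.621), PGK1 (12778 and 6622 reads, 0.634) and the glucose transporter SLC2A1 (6420 and 3265 reads, 0.623). Isozymes of one step had unlike values, since ENO2 had 1281 and 1049 reads and a ratio of 1.00, and ALDOA 32878 and 18904 reads and a ratio of 0.704. Of the 37 genes of the list outside the set, 21 had a counting interval below 1 and 12 one above 1, the latter including VEGFA at 1.32. Among all 11204 well-read coding genes, 3041 had an interval below 1. The interval narrows with more reads, so such counts also depend on depth.

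Genes of iron and heme handling numbered 4 of 29 in the set, with a list median of 0.905 and none above 1/0.6. Besides FTH1 these were the heme-binding proteins HEBP1 (599 and 242 reads, ratio 0.495) and HEBP2 (277 and 130 reads, 0.574), and STEAP3, a ferrireductase of endosomes (472 and 200 reads, 0.519). The transferrin receptor TFRC, which takes up iron, had 3236 and 2641 reads and a ratio of 0.999. Heme oxygenase HMOX1, with 595 and 503 reads, had a ratio of 1.03. MT1X, a metal-binding metallothionein, had 291 and 93 reads and a ratio of 0.391, while MT2A had 5732 and 3718 reads and a ratio of 0.794. Metallothionein genes are near-identical copies that can share reads, so the split between them is uncertain.

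In the list of thiol redox and NRF2 target genes, 3 of 48 genes were in the set, and the list median was 0.855. AKR1C2 (146 and 38 reads, ratio 0.319) and AKR1C3 (417 and 196 reads, ratio 0.575) are aldo-keto reductases of steroid metabolism with closely similar sequences and neighbouring loci, so their reads may be split between them. The other peroxiredoxins were outside the set. PRDX2, PRDX3, PRDX5 and PRDX6 had ratios of 0.798, 0.779, 0.878 and 0.956, and PRDX4 had 642 and 794 reads and a ratio of 1.51. Thioredoxin TXN and sulfiredoxin SRXN1, which reduce peroxiredoxins, had ratios of 0.726 and 1.09.

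Protein entry into the endoplasmic reticulum contributed SSR1 and KDELR3, 2 of 45 genes, with a list median of 0.889. SSR1, the alpha subunit of the translocon-associated protein complex, had 2196 and 789 reads and a ratio of 0.440 (95% interval 0.405 to 0.477). Its partner subunits SSR2, SSR3 and SSR4 had ratios of 0.906, 0.997 and 0.866. KDELR3, a receptor that returns escaped chaperones, had 317 and 135 reads (ratio 0.521), while KDELR1 and KDELR2 were at 0.811 and 0.864. Among 17 genes of cap-dependent initiation, EIF4H alone was in the set. Its functional relatives EIF4B and EIF4A1 had ratios of 0.882 and 1.14, and the list median was 0.957.

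Actin regulators held 7 of 57 genes with a list median of 0.926. They were the focal adhesion protein TNS1 (261 and 77 reads, ratio 0.361), ARHGDIB (290 and 96 reads, 0.405), AFAP1L2 (369 and 150 reads, 0.498), the bundling protein ESPN (353 and 144 reads, 0.499), CNN2, GSN and PDLIM1 (1874 and 917 reads, 0.599). TPM4 and TAGLN3 were above 1/0.6, at 3.04 and 3.57. Paralogs of the genes in the set included CNN3 at 0.926, ARHGDIA at 1.04 and TNS3 at 0.962.

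Secreted matrix proteins gave 4 of 34 genes, which were EFEMP1, OLFML2A (260 and 94 reads, ratio 0.443), the collagen-binding proteoglycan LUM (222 and 87 reads, 0.480) and C1QTNF1 (1114 and 469 reads, 0.515). The list median was 0.937, and abundant matrix genes such as SPARC (34148 and 21107 reads) and FN1 (1151 and 753 reads) had ratios of 0.757 and 0.801. Of 9 genes of tight junctions, CLDN4 (845 and 361 reads, 0.523) and F11R (926 and 432 reads, 0.571) were in the set, while the scaffold gene TJP1 was at 1.09.

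Cytokine and prostaglandin genes lay on both sides. In the set were 6 of 25, and 9 were above 1/0.6, with a list median of 1.26. The list holds LITAF, which was among the 6, although its product is the endosomal membrane protein named above and no cytokine. The others were the growth factor PDGFB (173 and 54 reads, ratio 0.382), the monocyte attractant CCL2 (119 and 42 reads, 0.432), IL1B (266 and 95 reads, 0.437), the prostaglandin E synthase PTGES (180 and 65 reads, 0.442) and IL18 (90 and 40 reads, 0.544). CCL5, with 340 and 2000 reads, had the highest ratio of the list at 7.20, so the 2 well-read CC chemokines of the list lay on opposite sides of 1. Likewise, IL1A had 261 and 258 reads and a ratio of 1.21, compared with 0.437 for IL1B.

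The remaining lists held 9 genes of the set. ASF1B, a chaperone of histones H3 and H4, had 813 and 275 reads and a ratio of 0.414, whereas its paralog ASF1A had 523 and 419 reads and a ratio of 0.981. HDAC11, a deacetylase, had 275 and 98 reads (ratio 0.436). BMF, a BH3-only protein that favours apoptosis, was the 1 gene of 15 in the BCL2 family in the set (608 and 222 reads, 0.447), where BCL2 and PMAIP1 were above 1/0.6 at 1.82 and 3.06. The mitochondrial genes were C19orf70, the carrier SLC25A45 (251 and 89 reads, 0.434) and UCP2 (309 and 122 reads, 0.483). The lysosome list gave RILP (160 and 62 reads, 0.474) and RNASET2 (212 and 83 reads, 0.479) of 48 genes, with a median of 0.938. PGC was the only 1 of 18 stomach genes that reached 100 reads.

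Some genes of the set overlap other genes with at least 10 reads, and the strand setting of the counting is not given in the sources used here. Reads from a stretch shared with a partner on the opposite strand therefore cannot be assigned to either gene. An overlap was called when whole gene spans, introns included, shared any base, so the shared stretch can be short. How many reads fell in it is not known. Overlaps on either strand were found for 54 of the 270 genes (20%) and 34.3% of all well-read coding genes. PRDX1 shares its locus with MMACHC on the opposite strand, which had 515 and 360 reads. CNN2 has an antisense RNA with 214 and 69 reads, and GSN-AS1, opposite GSN, had 264 and 138 reads. BEST1, opposite FTH1, had 76 and 139 reads. These 4 partners were read less than the gene of the set, but KDELR3 lies opposite DDX17, which had 4820 and 3644 reads and thus more than KDELR3 itself. SARS2, a gene of the set with 1029 and 496 reads that is named after its values were seen, lies opposite MRPS12 with 1645 and 1080 reads.

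Promoters of the set resembled those of the background in the motifs searched. Promoters of 300 bases (250 before and 50 after the start, RefSeq, GRCh38) were found for 221 of the 270 genes and 9324 of the well-read coding genes. On either strand, the core of the hypoxia element, ACGTG, was present in 21.3% of the set and 27.3% of the background, and the metal element TGCACNC in 12.7% and 10.96%. The antioxidant element TGACNNNGC was found in 11.3% and 14.97%, and the AP-1 element TGANTCA in 6.33% and 4.32%. CCAAT was in 37.1% and 36.5%, TATAAA in 6.33% and 5.18% and GGGCGG in 69.2% and 71.6%. Over all 27305 promoters of the table the shares were 21.6%, 11.9%, 13.6%, 7.76%, 35.7%, 11.95% and 44.6% in the same order. Of the genes of the set in the glycolysis and hypoxia list, CA9, PPFIA4, ALDOC and FAM162A hold ACGTG in this window and ENO1 does not. MT1X holds TGCACNC, and so does CA9. The part of these elements in the ratios was not tested. Median gene length was 3023 bases in the set and 3506 in the background, and the median 3′UTR measured 1506 and 1566.5 bases.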

How the data were processed

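Total RNA was sequenced by the authors on an Illumina instrument. TopHat2 aligned the reads to GRCh37 (hg19), HTSeq gave the counts, and the submitters' processing notes also name HISAT2. Versions, annotation, counting mode and strand setting are not given in the sources used here. The deposited values are raw read counts per gene and RPKM, which the authors computed from the count, the gene length and the library total, together with the gene length as another deposited column. A further 12 columns of other samples in the table were left aside. Each condition had 1 library, of 18829544 (siNC) and 15383081 (siLINP1) reads, so no test was made.

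The genes and the lists were chosen with earlier results of these data, and the gene tables of the study, known. Named were LINP1, the 10 genes of the set with most reads, the 10 with the lowest upper bound of the ratio, its genes in the 15 lists, the 2 nearest the cutoff on either side, and list genes or close relatives for comparison. Intervals of a ratio turn the Clopper-Pearson interval of the read split into a ratio at the library totals. The 3′UTRs were those of all coding transcripts of GENCODE release 44 on GRCh37, joined per gene, and matched 269 of the 270 genes. Alternatives were size factors, TMM (edgeR 4.0.16, R 4.3.3), other minima and folds, a pseudocount of 1 read, kept prefixes, no overlapping genes and other seed sites. The calculation was tested on simulated counts. The software was scipy 1.17.1, pandas 2.3.3, numpy 2.4.6 and matplotlib 3.10.9 under Python 3.11.15. Some results on single genes are not reported here.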

Additional observations from a re-analysis of the deposited data

How the results depend on the processing

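No paired analysis was possible because each condition had 1 library, and no replicate could be left out. In place of the 270 genes there were 1651 genes with no minimum, 53 with at least 1000 reads (chosen after seeing the data), 90 below a ratio of 0.5, 725 below 0.7 and 63 with the upper bound below 0.6. The counts with size factors (385) and TMM factors (353), each holding all 270, with a minimum of 200 reads (181) or of 50 reads, without overlapping genes (216), with prefixes kept (277) and with a pseudocount (266) were within 1.5 times. As a share of the well-read genes, 2.41% became 3.44% with size factors, 3.15% with TMM factors, 3.29%, 10.3% and 1.74% with a minimum of 50, 1 and 200 reads, 0.803% and 6.47% at ratios of 0.5 and 0.7, 0.562% for the upper bound and 2.93% without overlapping genes. The share of genes with a 7-base seed site (30.9%) was 21.2% for siLINP1_01 alone and 14.1% for siLINP1_02 alone, 61.0% for a 6-base site and 13.4% for an 8-base site. It was 39.6% at 1000 reads or more, and 22.6% there for the 8-base site of siLINP1_01. The background moved with the site, to 20.1%, 16.4%, 62.6%, 10.4%, 30.9% and 6.32%. The longest 3′UTR alone gave 29.7%, and the listed genes in the set numbered 50 and 46 under the other scalings against 44. Of the 270 genes, 128 had under 300 reads.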

Other observations

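Outside the lists, 226 genes of the set remained, and some of their products are known to work together. These groups were picked after their values had been seen, so they are descriptions without a test. Both chains of the lymphocyte integrin alpha4 beta7 were in the set, ITGA4 with 698 reads in siNC and 287 in siLINP1 (ratio 0.503) and ITGB7 with 78 and 31 reads (ratio 0.486). ITGA4 overlaps CERKL on the opposite strand, also in the set with 117 and 30 reads, and reads from the stretch they share cannot be told apart. PDGFRB, the receptor of the ligand encoded by PDGFB, had 369 and 172 reads (ratio 0.571), and the VEGF receptor gene KDR had 111 and 48 reads (ratio 0.529). Of the COPI coat, COPZ1 (2747 and 1323 reads, 0.590) and COPG2 (479 and 227 reads, 0.580) were in the set, the latter overlapping MEST. The other subunit genes of the coat were not in the set, so these values do not describe the coat as a whole. TMEM173, which encodes the DNA-sensing adaptor STING, had 1213 and 588 reads and a ratio of 0.593.

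By name, 9 of 212 genes with names starting with SLC (4.25%) and 8 of 169 starting with TMEM (4.73%) were in the set, beside 2.41% of all well-read coding genes. Such a name does not always mark a solute carrier, and SLC9A3R1 is among the 9. Of 10 myosin heavy chain genes (MYH), 3 were in the set. These were MYH11 (158 and 65 reads, ratio 0.504), MYH14 (237 and 104 reads, 0.537) and MYH15 (294 and 136 reads, 0.566). The name groups were picked from several after the values had been seen. Other small groups came near the share of MYH, such as REEP (2 of 6) and GJ (2 of 7). Along the genome, 11 pairs of genes of the set lay within 50000 bases of each other, among them SH3D21 and EVA1B, 682 bases apart with ratios of 0.523 and 0.508, and CLDN4 and WBSCR27, 1896 bases apart with ratios of 0.523 and 0.577. Such pairs were not counted in the background, so the number is not read as clustering. Chromosome 21 held 0 of its 107 well-read coding genes in the set, and chromosome 22 held 11 of 272 (4.04%). These are the ends of the range over all chromosomes, and chromosomes Y and M, with 5 and 13 such genes, also held 0.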
